A study of Homo sapiens with 3 samples.

Results

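Mature microRNA levels were compared between MCF12A cells kept for 4 weeks with ethanol and unexposed MCF12A cells, on 1 array each, 2 of the 3 arrays of the series. MCF12A is an established line of human breast epithelial cells that does not form tumours. All human microRNA probes of the array entered, 2019 in number, each printed as 4 spots, 2 in each of 2 blocks. The labels state the ethanol dose as 2.5 mM on the sample and as 2.5% in the treatment protocol, and the files do not settle which was used. Both groups were grown in a medium that held horse serum, cholera toxin, hydrocortisone, insulin of bovine origin and epidermal growth factor. A clone picked from soft agar appears in the protocol and is tied to none of the arrays. The control array also served as the control of an acetaldehyde array that is used here for scaling only. With 1 array per group there is no replicate culture, so no p-value was computed, and the errors given below are SDs over the 4 spot positions of a probe. They cover printing and reading of spots and not the variation between cultures, and fewer cells with a microRNA and less of it per cell cannot be told apart.

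A microRNA is a short single-stranded RNA that is cut from a hairpin and loaded into an Argonaute protein. It pairs with messenger RNAs mainly through its seed, the bases 2 to 8 from its 5′ end, and lowers their translation and stability. MicroRNAs that share a seed form a family with overlapping targets, and those cut from 1 primary transcript form a cluster that is often transcribed together. In breast epithelium miR-205 and the miR-200 family mark epithelial identity, the let-7 family restrains RAS and HMGA2, and miR-155 responds to NF-kB and other inflammatory signals.

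The sequences on which the comparison turns are given first, as the array files list them. The pair with the highest signal on the ethanol array among those at least 1.5-fold higher carries long runs of A, which are in capitals.
miR-4668-5p: agggAAAAAAAAAAggauuuguc
miR-3613-3p: acAAAAAAAAAAgcccaacccuuc

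For the remaining sequences the capitals mark the seed. miR-155-5p is the best known microRNA on the higher side, and miR-98-5p was the member of the let-7 family that stood apart from the others, here represented by let-7c and let-7i-5p.
miR-155-5p: uUAAUGCUaaucgugauaggggu
miR-98-5p: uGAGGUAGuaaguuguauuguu
let-7c: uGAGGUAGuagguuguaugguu
let-7i-5p: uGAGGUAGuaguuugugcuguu

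The lower side is represented by 5 microRNAs of different seeds, and by miR-181a-5p and miR-23a-3p, which share the seeds of miR-181c-5p and miR-23c. The last 3 sequences belong to families whose members were lower together by less, and to miR-4521, which was read above background on the control array alone.
miR-494: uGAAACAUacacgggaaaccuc
miR-574-3p: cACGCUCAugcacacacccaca
miR-224-5p: cAAGUCACuagugguuccguu
miR-181c-5p: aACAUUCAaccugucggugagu
miR-181a-5p: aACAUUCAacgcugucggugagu
miR-23c: aUCACAUUgccagugauuaccc
miR-23a-3p: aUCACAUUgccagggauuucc
miR-27b-3p: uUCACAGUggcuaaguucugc
miR-16-5p: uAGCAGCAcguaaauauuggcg
miR-4521: gCUAAGGAaguccugugcucag

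Of these 16 sequences, 14 are identical to a mature microRNA of the same name in RefSeq on GRCh38.p14. There miR-4668-5p lies at chr9:111932100-111932122 on the plus strand, miR-3613-3p at chr13:49996426-49996449 on the minus strand and miR-98-5p at chrX:53556299-53556320 on the minus strand. miR-494 lies at chr14:101029681-101029702, miR-574-3p at chr4:38868092-38868113 and miR-181c-5p at chr19:13874725-13874746, all on the plus strand. miR-98-5p differs from let-7c by 2 of 22 bases, G11A and G19U, counted from the 5′ end with the base of let-7c first. let-7i-5p differs from let-7c by 4 bases.

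The ethanol array had a higher and more variable background. Its empty spots had a median of 148 and an SD of 31.6, against 106 and 13.6 on the control array, and block medians of 141 and 162, against 104 and 108. Detection required a mean over the spots of a probe more than 3 SDs above the empty-spot median, that is above 243 on the ethanol array and 146 on the control array, and 50% or more of the spots past that mark. By this rule 347 microRNAs were detected on the ethanol array and 775 on the control array. All 347 were detected on both arrays, 428 on the control array only and 1244 on neither. The empty spots were not the dimmest surface of the ethanol array: the spots of the 1244 probes undetected on the control array had a median of 105 on the ethanol array, under its own empty spots, against 106 on the control array. Statements below therefore rest on the 347 and say little about dim microRNAs.

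Of 10 epithelial and basal mammary markers, 8 were detected on both arrays. miR-205-5p was the brightest probe, with spots of 18142, 20307, 17219 and 17423 on the ethanol array, against 20900.4, 23458, 20925 and 21542 on the control array (raw intensity). miR-200c-3p and miR-141-3p were detected on both arrays, miR-200a-3p on the control array alone, and miR-429 on neither. All 7 blood cell markers were undetected on both arrays, as were 4 of 6 mesenchymal markers. The detected mesenchymal markers, miR-214-3p and miR-10b-5p, stood at -0.18 and 0.06.

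Differences are given as ethanol minus control on the log2 scale, after background correction and quantile normalization, with 9 probes read without a dark spot (a spot under 50% of the net signal of its probe). Before normalization the 347 detected microRNAs were lower on the ethanol array by a median of 0.33 (log2 difference -0.33), the 6 5S ribosomal RNA probes differed by a median of -0.20, and the 43 spike probes by -0.09. Normalization set the microRNA median to 0.00, so each direction below is relative to the other microRNA probes. Of the 347, 311 (89.6%) lay within 1.5-fold, and the differences had an SD of 0.36, with 5% of them below -0.49 and 5% above 0.69. The median spot SD of a difference was 0.13. A difference of 1.5-fold or more was found upwards for 26 microRNAs (7.49%) and downwards for 10 (2.88%). At 2-fold there were 2 higher (0.576%) and 0 lower (0.0%). The detection filter bears on the 1.5-fold split, because the detection level was higher on the ethanol array. A dim probe lower with ethanol could drop out of the 347, while one higher with ethanol stayed. Of 119 microRNAs with a mean intensity below 500, 6 were past 1.5-fold upwards and 0 downwards. The split also rested on the scaling. It was 3 higher and 80 lower without normalization, and 27 and 19 with scaling on the 5S probes. It was 42 and 7 when arrays were scaled to equal medians of the detected probes. Of all 347, 170 (49.0%) lay above 0, 166 (47.8%) below 0 and 11 (3.17%) at 0, where both arrays gave the probe the same rank. All spot positions were higher for 111 (32.0%) and lower for 108 (31.1%). After normalization, spots of the ethanol array lay wholly above those of the control array for 89 microRNAs (25.6%) and wholly below them for 80 (23.1%), so separated spots alone were common, and all 36 microRNAs past 1.5-fold had them.

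**Figure D1:**
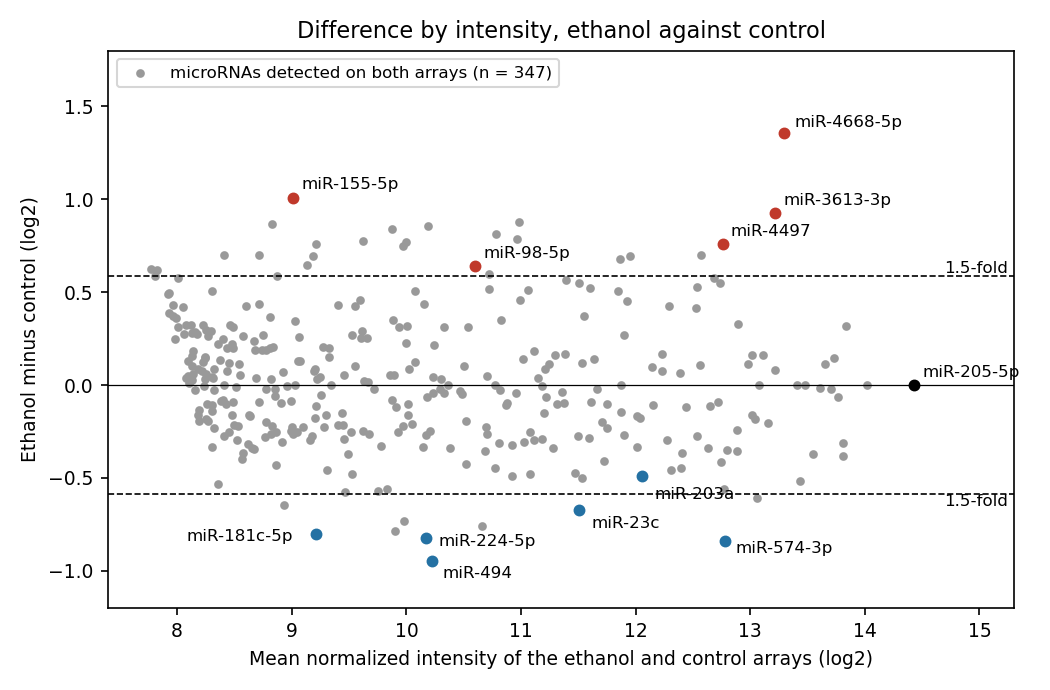
Log2 difference of ethanol minus control (vertical axis) against the mean normalized log2 intensity of both arrays (horizontal axis) for 347 microRNAs detected on both; each point is 1 probe on 1 array per group, coloured points are named (red above 0, blue below 0, black at 0), and dashed lines mark 1.5-fold. Most points lie between the lines, with miR-4668-5p at 1.36 and miR-494 at -0.95 as the extremes.

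Highest with ethanol was miR-4668-5p, a little studied entry found by sequencing. Its 4 spots read 14543, 14035, 14085 and 12991 on the ethanol array, against 6876, 7604, 6336 and 6896 on the control array (raw intensity). Every ethanol spot was brighter than every control spot, although most microRNAs were dimmer on that array. The normalized intensity was 16053 with ethanol and 6262 in control, 2.56-fold higher (1.36 ± 0.13, SD over 4 spot positions). miR-3613-3p, whose sequence carries an A run of the same length, had spots of 13412, 13696, 12367 and 12395 with ethanol, against 7594, 7129, 8609 and 7577 in control. The log2 difference was 0.92 ± 0.18, with normalized intensities of 13110.2 with ethanol and 6908 in control. A run of at least 6 A occurs in 4 of the 2019 microRNAs, of which 3 were detected on both arrays. The third, miR-3148, has a shorter run and differed by 0.04 ± 0.13, with normalized intensities of 616 with ethanol and 599 in control. The assay adds a poly(A) tail to the RNA and reads it through a tag, per the labels; the part of the A runs in both differences was not tested.

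Second was miR-155-5p, which is cut from the transcript of MIR155HG, is induced by NF-kB and AP-1, and represses SOCS1. Its spots read 655, 686, 659 and 714 with ethanol, against 438, 415, 437 and 396 in control. The groups of spots did not overlap. With normalized intensities of 732 with ethanol and 364 in control it was 2.01-fold higher (1.01 ± 0.13). It stayed past 1.5-fold in all 12 alternative settings of correction, normalization, spots and values, from 0.70 to 1.30, and passed 2-fold in the deposited table, at 1.17. The other NF-kB responsive members of the list could not be set beside it: miR-146b-5p was detected on the control array only and miR-146a-5p on neither. Raw spots of miR-146a-5p lay between 121 and 138 with ethanol, against 86.2 and 117 in control, below the detection level of each array.

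**Figure D2:**
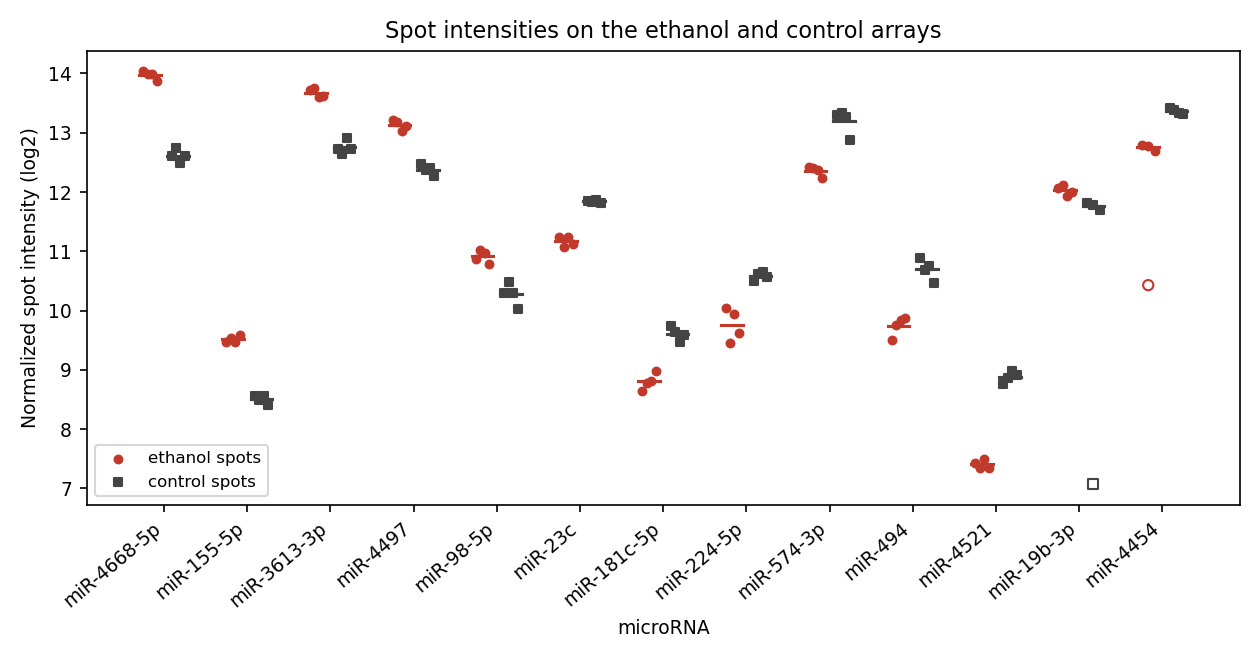
Normalized log2 intensity of each spot (vertical axis) for 13 microRNAs (horizontal axis); red circles are the spots of the ethanol array and dark grey squares those of the control array, lines are means of the spots used, and open symbols are dark spots left out. Ethanol and control spots of miR-4668-5p, miR-155-5p and miR-494 lie fully apart, and the open symbols of miR-19b-3p and miR-4454 lie far below the other spots of their probes.

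Most of the other microRNAs on the higher side were high-numbered entries, found late by sequencing and with few known functions. Of the 26 past 1.5-fold higher, 21 (80.8%) carry a number of 1000 or above, against 179 of all 347 (51.6%), a property looked at after the values were seen. Control levels of miR-1236-5p and miR-4638-5p, both among the 21, were 7.46 and 7.51 (normalized log2). The lowest level detected on the ethanol array was 8.08, so both could be counted only if higher with ethanol. The same holds for miR-483-3p and miR-10a-5p, of the 26 but with lower numbers. The brightest of the 26 below miR-4668-5p and miR-3613-3p was miR-4497, with spots of 9178, 8942, 8058 and 8483 with ethanol, against 6376, 5960.1, 6087 and 5516 in control. It was 1.69-fold higher (0.76 ± 0.10). miR-1237-5p was 1.84-fold higher (0.88 ± 0.11), with a normalized intensity of 2751 with ethanol and 1498 in control. miR-2861, which was described in mouse osteoblasts as a repressor of HDAC5, was 1.76-fold higher (0.81 ± 0.08). Others between 0.70 and 0.87 were miR-612, miR-3185, miR-4532, miR-4690-5p, miR-1908, miR-4486, miR-4467, miR-4505 and miR-1231. Without normalization these 12, miR-612 included, stood at 0.35 to 0.55, short of 1.5-fold. Only miR-4668-5p, miR-3613-3p and miR-155-5p were past it there.

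The GC-rich high-numbered entries (a number of at least 1000 and at least 70% G or C) were the largest group on the higher side. The array carried 155, of which 73 were detected on both arrays and 64 on the control array only. Of the 73, 52 were above 0 and 21 below, where 49.0% and 47.8% of all 347 lay on those sides. Past 1.5-fold were 12 upwards and 1 downwards, against 7.49% and 2.88% of all 347. Their median was 0.25 (0.33 in the deposited table and -0.06 without normalization), where all 347 had medians of 0.00, 0.05 and -0.33. The single lower one past 1.5-fold was miR-4651, at 80.0% G and C, with spots of 640.0, 647, 784 and 643 with ethanol, against 1526, 1596, 1564 and 1379.7 in control (-0.79 ± 0.14). Members thus ranged from -0.79 to 0.88. Control levels of miR-4535, miR-4783-3p and miR-3180 were 7.73, 7.68 and 8.055 (normalized log2), below the lowest level detected on the ethanol array, 8.08. Each of them could be counted only if higher with ethanol, and the 64 detected on the control array only are outside these counts.

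The relation with base content was not a straight line. Among 51 microRNAs with more than 75% G or C the median difference was 0.41, and 44 of them were above 0. In the 5 classes from 35% or less up to 75%, of 15 to 92 microRNAs, medians lay between -0.08 and 0.02. Without normalization these medians lay between -0.46 and -0.31, and that of the class above 75% at 0.09. In the class above 75%, miR-602 and miR-4783-3p had control levels of 7.72 and 7.68 (normalized log2). Both levels lay below the lowest level detected on the ethanol array, so each could be counted only if higher with ethanol. The rank correlation of the difference across the 347 probes was 0.33 with the share of G, -0.03 with the share of C, -0.30 with that of A and -0.15 with that of U. These values describe probes read on the same arrays, which are not independent, and they share the normalization. AU-rich entries without an A run (at most 35% G or C) had a median of 0.01 over 14 detected of 215, with 7 above 0 and 6 below.

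**Figure D3:**
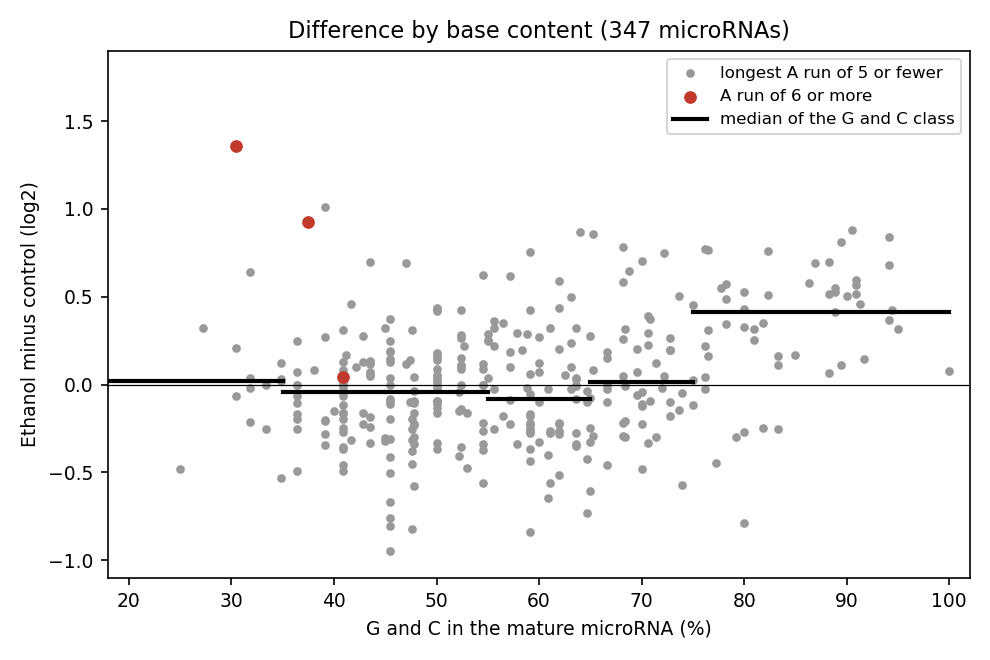
Log2 difference of ethanol minus control (vertical axis) against the share of G and C in the mature microRNA in percent (horizontal axis) for 347 microRNAs; red points carry an A run of at least 6 bases, and black lines are the medians of classes of G and C content. The class above 75% has a median of 0.41, and the other classes lie between -0.08 and 0.02.

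Lowest of all with ethanol was miR-494, a microRNA of the imprinted cluster of chromosome 14. Its spots read 659, 782, 828 and 851 on the ethanol array, against 2143, 1857, 1943 and 1606 on the control array. It was 1.93-fold lower (-0.95 ± 0.33), and its spots spread more than most: block 1 alone gave -1.15 and block 2 alone -0.71. miR-574-3p had spots of 5445, 5383, 5280.1 and 4807 with ethanol, against 10688, 11061, 10563 and 8021 in control. It was 1.79-fold lower (-0.84 ± 0.14). The other arm of the same hairpin, miR-574-5p, was lower by less (-0.23 ± 0.07), with 3184 with ethanol and 3732 in control (normalized). With arrays scaled to equal medians, miR-574-3p stood at -0.52, short of 1.5-fold.

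miR-224-5p, cut from an intron of GABRE on the X chromosome, had spots of 947, 630.3, 885 and 706 with ethanol, against 1693, 1846, 1883 and 1773 in control. It was 1.77-fold lower (-0.82 ± 0.31). miR-181c-5p read 356, 388, 399.5 and 446 with ethanol, against 995, 937, 835 and 898 in control, and was 1.75-fold lower (-0.80 ± 0.22). The remaining 4 past 1.5-fold with a high number were miR-4764-3p (-0.76 ± 0.28), miR-4481 (-0.73 ± 0.14), miR-4254 (-0.65 ± 0.23) and miR-4454 (-0.61 ± 0.02), beside miR-4651 as given above. miR-4454, whose sequence overlaps a tRNA, has 3 spots of 7462, 7379 and 6932 and a dark one of 1461 with ethanol, against 11563, 11316, 10975 and 10728 in control. With the dark spot kept it would read -1.06, past 2-fold, and in the deposited table it stood at -0.39.

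The miR-23/27/24 clusters act in endothelial growth, fat metabolism and TGF-beta signalling. Their list includes miR-23c, which shares the seed of miR-23a-3p but lies on the X chromosome, outside the clusters. In this list 5 of 6 members were lower at every spot position, where 31.1% of all 347 microRNAs were, and 0 were higher. Only miR-23c was past 1.5-fold. miR-23c had spots of 2257, 1998, 2265 and 2079 with ethanol, against 4294, 4243, 4344 and 4186 in control, and was 1.59-fold lower (-0.67 ± 0.07). miR-27b-3p followed at -0.45 ± 0.06, then miR-23b-3p at -0.38 ± 0.05, miR-27a-3p at -0.35 and miR-23a-3p at -0.31 ± 0.06. miR-24-3p, of the same transcripts as these members other than miR-23c, stood at 0.00. The list median of -0.37 ranged from -0.46 to 0.06 over the alternatives. With arrays scaled to equal medians, miR-23a-3p stood at 0.20 and miR-23b-3p at 0.09, so the direction of these bright members depends on the scaling.

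The miR-15/16 family, which represses cyclins and BCL2, had 3 of 5 detected members lower at every position, against 31.1% of all 347. miR-16-5p read 6639, 6239, 6232 and 6537 with ethanol, against 9398, 8525, 8861 and 8494 in control (-0.41 ± 0.06). miR-15b-5p stood at -0.37 ± 0.07, miR-15a-5p at -0.36 ± 0.11, miR-195-5p at -0.16 and miR-424-5p at 0.00. No member passed 1.5-fold. The family median of -0.36 kept its sign in all 12 alternatives, between -0.58 and -0.16. In the miR-30 family, miR-30b-5p (-0.46 ± 0.04) and miR-30c-5p (-0.33) were lower at every position, as was miR-30d-5p at -0.09. miR-30a-5p and miR-30e-5p stood at 0.00, the same rank on both arrays. Neither was above 0 in any alternative, and without normalization they stood at -0.44 and -0.50. The miR-30 median of -0.09 ranged from -0.50 to -0.08 over the alternatives.

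In the miR-17/92 cluster and the clusters paralogous to it, which promote proliferation, differences were small. All 6 microRNAs with the seed of miR-17-5p lay below 0, between -0.30 and -0.15, and miR-92a-3p of another seed at -0.37. In contrast miR-19b-3p stood at 0.27, miR-18b-5p at 0.12, miR-18a-5p at 0.07 and miR-19a-3p at 0.02. The 12 detected members had a median of -0.16, from -0.40 to 0.02 over the alternatives. None of them passed 1.5-fold.

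Among 9 let-7 microRNAs, 8 stood between -0.27 and 0.08, and miR-98-5p was 1.56-fold higher (0.64 ± 0.10). Its spots read 1872, 2074, 2001 and 1766 with ethanol, against 1532, 1735, 1532 and 1268 in control, so every ethanol spot was the brighter in raw intensity. Raw values include background: the nearest spots, 1766 and 1735, differed by less than the empty-spot medians of the arrays, 148 and 106. let-7c, which differs by 2 bases, had spots of 11219, 10821, 11061 and 11651 with ethanol, against 12550.0, 12558, 11817 and 11143 in control (0.00 ± 0.12). let-7i-5p was the lowest, at -0.27 ± 0.08. miR-98 lies beside let-7f-2 in an intron of HUWE1, and let-7f-5p stood at -0.02 ± 0.07. Without normalization miR-98-5p was 0.35, short of 1.5-fold.

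Members of some seed families stood apart from each other. The miR-181 family, which tunes lymphocyte and vascular signalling, spanned 0.86: miR-181c-5p stood at -0.80 and miR-181a-5p at -0.34, while miR-181b-5p (0.04) and miR-181d (0.05) stood near 0, although miR-181d is cut from the same cluster as miR-181c-5p. The trio of miR-99a-5p, miR-100-5p and miR-99b-5p, which repress mTOR, spanned 0.78, with miR-99a-5p at 0.44 ± 0.19, miR-100-5p at 0.16 and miR-99b-5p at -0.34. In the miR-378 group the range was 0.10, with all 4 detected members of the shared seed between 0.22 and 0.32. miR-378g, of another seed, stood at 0.29. The 4 were dim, at normalized intensities of 249 to 348 in control, where the detection filter favours probes higher with ethanol. For miR-378d and miR-378i the control level lay below the lowest level detected on the ethanol array, so the filter fixed their direction. Without normalization miR-378d stood at 0.00, miR-378i at -0.04, miR-378a-3p at -0.17 and miR-378e at -0.23, where all 347 had a median of -0.33.

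Smaller families lay near the middle of all microRNAs, with medians of -0.19 for miR-26, 0.00 for miR-29, -0.07 for the miR-103a family, 0.01 for the miR-148a family, 0.03 for the miR-130a family and -0.01 for miR-320. None of their detected members passed 1.5-fold. Among 8 detected microRNAs that overlap other small RNAs, 4 stood above 0 and 4 below, with miR-4454 the lowest and miR-4485 the highest at 0.27. Of 8 markers of other tissues 6 were undetected on both arrays, and miR-126-3p and miR-206 stood at 0.19 and 0.25.

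**Figure D4:**
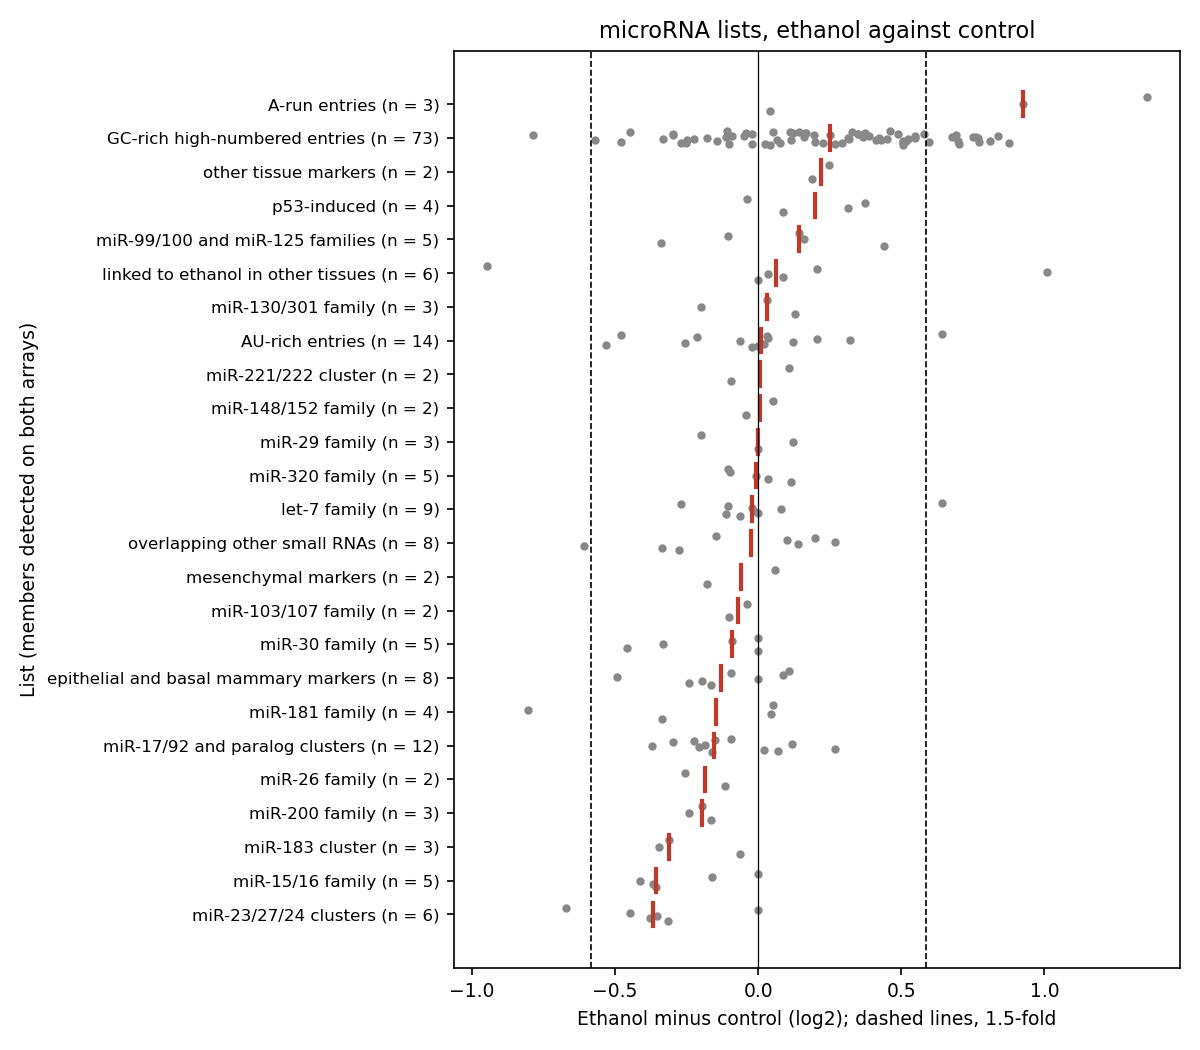
Log2 difference of ethanol minus control (horizontal axis) for members detected on both arrays of each microRNA list with at least 2 such members (vertical axis, ordered by median); grey points are microRNAs, red bars are medians and dashed lines mark 1.5-fold. The list of the miR-23/27/24 clusters with miR-23c and the miR-15/16 family lie lowest, at -0.37 and -0.36. The A-run entries (0.92) and GC-rich entries (0.25) lie highest.

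Epithelial and basal markers were near control or slightly lower. Of 8 detected members, 5 were below 0, 2 above and 1 at 0, with a median of -0.13. miR-203a, which represses p63 in stratified epithelium, was the lowest: its spots read 3429, 3477, 2836 and 3047 with ethanol, against 5835, 6195, 5646 and 5803 in control (-0.49 ± 0.10). miR-200c-3p, miR-141-3p and miR-200b-3p, which repress the ZEB factors, stood at -0.24, -0.20 and -0.17. miR-31-5p (0.09 ± 0.09), miR-222-3p (0.11) and miR-221-3p (-0.09), all of basal cells, differed by amounts near their spot error, and miR-205-5p held the same rank on both arrays. The miR-183 cluster stood at -0.35 for miR-96-5p, -0.31 for miR-182-5p and -0.06 for miR-183-5p.

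A list of 13 microRNAs that studies of other tissues have tied to ethanol had 6 detected on both arrays. miR-155-5p and miR-494 were its highest and lowest members. miR-335-5p stood at 0.21, miR-34a-5p at 0.09, miR-132-3p at 0.03 and miR-21-5p, which represses PDCD4, at 0.00, with a list median of 0.06. The p53-induced microRNAs had 4 of 8 detected on both arrays, with miR-194-5p at 0.37 ± 0.24 and miR-192-5p at 0.31 ± 0.14, both cut from 1 cluster and both dim, at normalized intensities of 285 and 286 with ethanol, against 219.7 and 230.4 in control. Neither passed 1.5-fold. Both control levels lay below the lowest level detected on the ethanol array, so each could be counted only if higher with ethanol. The detection filter thus fixed the direction of both, and 3 other p53-induced members were detected on the control array only. The hypoxia-induced miR-210 was also detected on the control array only.

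The control array alone detected 428 microRNAs, and 0 of them reached an intensity of 500 there. For 28 the control level exceeded the lowest detected level of the ethanol array and the probe's own level there, so that a lower bound could be given. The highest bounds were at least 1.79-fold lower with ethanol for miR-4440 and at least 1.74-fold lower for miR-4521. Spots of miR-4521 read 159, 151, 165 and 150.1 with ethanol, near the empty spots of that array, against 502, 538, 581 and 557 in control. Its measured normalized intensities were 169.6 with ethanol, not above background, and 471 in control. miR-4440 had 3 spots between 258 and 282 and 1 of 147 with ethanol, against 442 to 699 in control. The 3 lie above the detection level of 243, so its place among the undetected, and its bound, rest on 1 spot. The next bounds were at least 1.30-fold lower for miR-631 and at least 1.25-fold lower for miR-3646.

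Both arms of a hairpin were detected on both arrays for 18 hairpins. In 5 the arms lay on the same side of 0, and in 14 they differed by less than 0.5. The rest were not all opposed: miR-30a, miR-151a, miR-205 and miR-29a had an arm at 0.00. The widest gap was that of miR-483, with the 5p arm at -0.26 ± 0.21 and the 3p arm at 0.62 ± 0.15. Its 3p arm was dim, at normalized intensities of 282 with ethanol and 183 in control. That control level lay below the lowest level detected on the ethanol array, so the arm could be counted only if higher with ethanol. Next was miR-193a, with the 5p arm at 0.42 ± 0.34 and the 3p arm at -0.37 ± 0.31, differences near their spot error. In miR-4701 the 5p arm stood at -0.43 and the 3p arm at 0.26. miR-335, cut from an intron of MEST, had both arms higher, at 0.21 and 0.25, each after a dark ethanol spot was left out.

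Dark spots decided 2 of the largest apparent differences. miR-19b-3p had control spots of 4069, 3947 and 3752 and a dark one of 166, against ethanol spots of 3913, 4048, 3558 and 3707: it read 1.49 with the dark spot and 0.27 ± 0.07 without it. let-7f-5p had a dark control spot of 1266 beside others of 13140.5 to 14362, and read 0.99 with it and -0.02 without it. miR-5100 read 0.63 with its dark control spot and -0.27 without it, and miR-3665 read -0.64 with its dark ethanol spot and 0.11 without it. The rule on dark spots applies to bright probes, and miR-10a-5p escaped it. Its spots were 381, 376, 382 and 381 with ethanol, against 463, 112, 377 and 400.3 in control, and its 0.70 ± 1.01 became 0.34 with the median of the spots and 0.25 in the deposited table. It is counted among the 26.

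The deposited table holds 1 normalized value per probe and array, with the authors' own correction and scaling. Read as log2(value + 50), its differences correlated with those of the spot files at r of 0.96 across the 347 probes, which are read from the same 2 arrays. It gave 40 microRNAs past 1.5-fold on the higher side and 11 on the lower side. The 25 shared higher ones were 96.2% of the 26 and 62.5% of the 40, and the 9 shared lower ones were 90.0% of the 10 and 81.8% of the 11. At 2-fold it had 4 higher, among them miR-4668-5p (deposited values of 15011 with ethanol and 6249 in control) and miR-155-5p (698 with ethanol and 283 in control). Differences from the spots of block 1 alone and of block 2 alone correlated at r of 0.88 across the 347 probes.

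**Figure D5:**
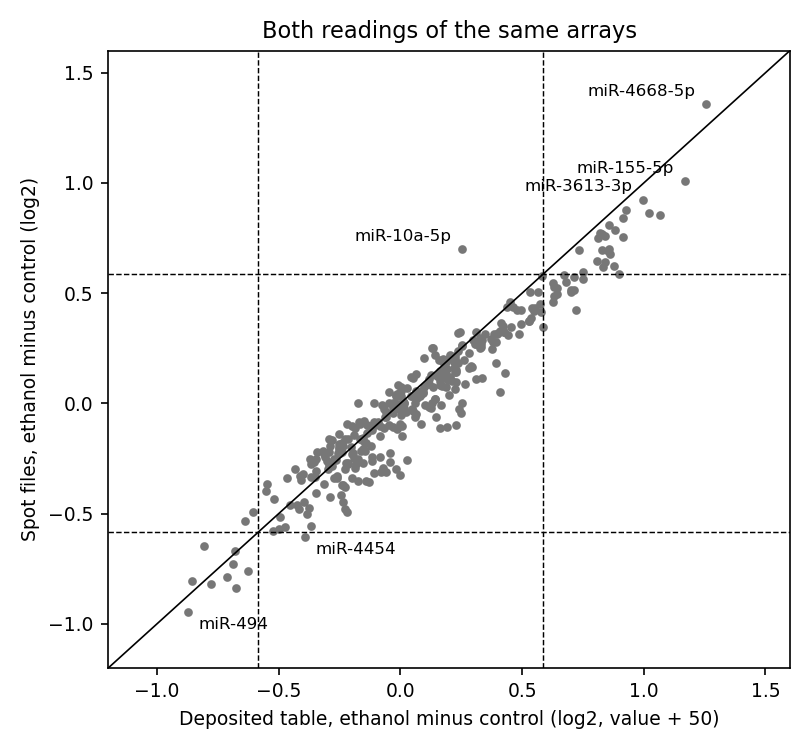
Log2 difference of ethanol minus control from the spot files (vertical axis) against that from the deposited table, log2(value + 50) (horizontal axis), for 347 microRNAs; the solid line marks equal values and dashed lines mark 1.5-fold. Points follow the line but lie mostly under it at the upper end, where the deposited differences are larger, with miR-10a-5p off it at 0.70 from the spots and 0.25 in the deposited table.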

How the data were processed

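MicroRNAs were measured on 1-colour arrays of a commercial service from 2 µg of total RNA with a poly(A) tail and a Cy5 stained tag, per the labels' protocols. The deposited per-array files give a median intensity for every spot, not background-subtracted as far as the header and the values of empty spots show. The deposited series table holds 1 linear normalized intensity per probe and array. How the authors normalized it, the scanner and the microRNA database release were not given in the sources used here. All names and sequences are those of the array files.

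In R 4.3.3, limma 3.58.1 applied the normexp correction with an offset of 50 to all deposited spot intensities, which were taken to log2, averaged per probe without dark spots and quantile normalized over the 2019 microRNA probes of the 3 arrays. A dark spot had under 50% of the median net signal of its probe where that median exceeded 300. The offset draws differences of dim probes towards 0. Remaining steps ran in Python 3.11.15 with NumPy 2.4.6, pandas 2.3.3, matplotlib 3.10.9 and SciPy 1.17.1. Detection, correction, spot summary and normalization were tested on a simulated ethanol array with known fold changes. That array kept the background of the control array, so the higher ethanol background was not tested. Later steps were not run on simulated data. Intensity and number of arrays limit the precision.

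Named microRNAs were the 15 highest and 15 lowest differences of at least 1.5-fold with an intensity of at least 500 on 1 array, up to 5 detected on the control array only, the 2 brightest and the most different member of each of 28 lists, probes with a dark spot, the 5 brightest control probes, and the 3 hairpins with the widest gap between arms; the text prints a part and adds further members of the families. miR-10a-5p, miR-146a-5p, miR-378, miR-602, miR-1236-5p, miR-3180, miR-4535, miR-4638-5p and miR-4783-3p were named after their values were seen. The members and lists were chosen with earlier results of these data known. Alternatives covered dark spots, correction, scaling, spot summary, blocks, filters and the deposited table.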

Additional observations from a re-analysis of the deposited data

How the results depend on the processing

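The counts past 1.5-fold (26 higher and 10 lower with ethanol) and past 2-fold (2 higher and 0 lower) depended on the scaling and on the background correction. Without normalization they were 3 and 80 at 1.5-fold, and 1 and 7 at 2-fold. Equal medians of the detected probes gave 42 higher and 7 lower at 1.5-fold, and scaling on the 5S probes gave 19 lower at 1.5-fold and 1 lower at 2-fold. The share of higher calls among all past 1.5-fold thus changed with the scaling. Subtracting the empty-spot median gave 40 higher at 1.5-fold, and 8 higher and 1 lower at 2-fold, and the deposited table gave 40 and 4 on the higher side. At 2-fold, block 1 alone gave 4 higher and 1 lower, block 2 alone 1 higher, cyclic loess 3 higher, and kept dark spots 3 higher and 1 lower. Using all 2019 probes gave 1 lower at 2-fold, and so did the 775 detected on the control array, a filter chosen after seeing the data; the cause of these shifts was not tested beyond the change of setting itself. Of 27 named microRNAs past 1.5-fold, 27 kept their sign in all 12 settings that gave a difference, 10 stayed past 1.5-fold in all of them, and 23 in all but the one without normalization. The 10 were miR-4668-5p, miR-155-5p, miR-3613-3p, miR-494, miR-224-5p, miR-181c-5p, miR-4651, miR-4764-3p, miR-4481 and miR-4254. No paired analysis was possible because each group has 1 array.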
